A study of Homo sapiens with 2 samples.

Results

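The unfolded protein response and the integrated stress response were described here through 42 listed genes, of which 41 were measured among 19775 genes on the arrays. A gene was taken as measured when at least 1 probe set named it and no other gene in the platform annotation, and 92 of 54675 probe sets met this for the listed genes. SYVN1, the ubiquitin ligase of ER-associated degradation, appeared only on a probe set that also names a microRNA gene and was left out. The arrays compared FaDu cells stably carrying GLUT4, the insulin-responsive glucose transporter, with FaDu cells stably carrying the control vector, with 1 array for each. FaDu is an established cell line derived from a pharyngeal squamous carcinoma. Both populations went through lentiviral transduction and puromycin selection, so the control carried these treatments too. For the promoter that drives GLUT4, nothing is stated in the sources used here. The methods speak of stable clones, and whether each population was 1 clone or a pool is not given there. The study asked which genes differ with GLUT4, and the arms of this response are compared below on that question.

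Cells sense unfolded proteins in the endoplasmic reticulum (ER) through the membrane proteins IRE1, PERK and ATF6, which raise folding capacity, clear misfolded proteins and slow translation. The kinases PERK, GCN2, HRI and PKR converge on phosphorylation of the translation factor eIF2, which favours translation of ATF4. ATF4 in turn drives genes of amino acid synthesis and stress, among them CHOP. Much of this control acts on splicing, proteolysis and translation, so mRNA levels show the transcriptional output of the response and not the activity of the sensors.

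Each value is an intensity on a linear scale that the authors had normalized. A difference is GLUT4 minus vector in log2 intensity, and 1.5-fold, the threshold of the methods, equals 0.58 on this scale. A gene with several probe sets stands on the brightest, by the mean of both arrays. Each population had a single array, so no difference below has a test or a replicate behind it. As a guide to technical error, the differences of the brightest pair of probe sets of a gene had an SD of 0.29 over 10523 genes, equal to 0.20 per probe set, and this leaves out variation between cultures. Intensities of different probe sets are not comparable as levels, so each gene is compared only with itself. The sums over cell type markers below are an exception, and they are weighted by the brightest probe sets.

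SLC2A4, which encodes GLUT4, read 32.6 on the GLUT4 array and 28.3 on the vector array, both below the median signal of 39.3. Whether its probe set lies in the introduced sequence was not determined. By western blot the study reported overexpressed GLUT4 protein in FaDu cells given the gene. Whether these were the arrayed cultures is not stated. Squamous markers were bright. KRT5 read 13093 with GLUT4 and 11024 with the vector, and SFN read 11894 and 11921. Of the 7 squamous markers measured, KRT14 was more than 1.5-fold higher with GLUT4 (1.02) and EPCAM more than 1.5-fold lower (-0.83). Of 6 fibroblast markers all 6 lay above 0 and 2 were past 1.5-fold, the proteoglycans DCN (1050.1 with GLUT4 and 482 with the vector) and LUM (79.9 and 38.5). The summed fibroblast markers came to 1459 with GLUT4 and 834 with the vector, and DCN made up most of that gap. The collagen gene COL1A1 read 226 and 224 on its brightest probe set. A probe set of COL1A1 below the median signal read 34.2 and 16.3 (1.07), and its others lay between -0.12 and -0.05. COL1A2 and COL3A1 stayed below the median signal on both arrays. The 5 leukocyte markers summed to 90.2 and 88.4, and the 4 endothelial markers to 97.1 and 91.2. The part of these marker differences in the values below was not tested.

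On their brightest probe sets 39 of the 41 measured members lay within 1.5-fold, as did 19108 of the 19775 genes of the array. No measured member was more than 1.5-fold higher with GLUT4, against 1.84% of all genes. The members more than 1.5-fold lower were DDIT3 and EIF2AK3, 2 of 41, against 1.54% of all genes. At this threshold the counts of members are too small to be set apart from, or equated with, the shares of the array at large. Of the 41 members, 26 lay below 0 and 15 above, that is 63.4% below 0, against 52.2% of all genes. The median over the members was -0.10, against -0.02 over all genes, and the median size of the difference regardless of sign was 0.16, against 0.14 over all genes. All 41 members had a brightest probe set above the median signal of the arrays.

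At a lower threshold of 0.32 on the log2 scale, chosen after the values were seen, 8 of 41 members were lower and 3 were higher. Among the 12939 genes above the median signal 7.77% were lower and 8.51% higher at that threshold. The lower members were DDIT3, EIF2AK3, ATF6, GDF15, TRIB3, CEBPB, CEBPG and CALR, and the higher ones ERN1, PPP1R15A and ALDH1L2. ERN1, CEBPG and GDF15 also had a probe set of the opposite sign.

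**Figure D1:**
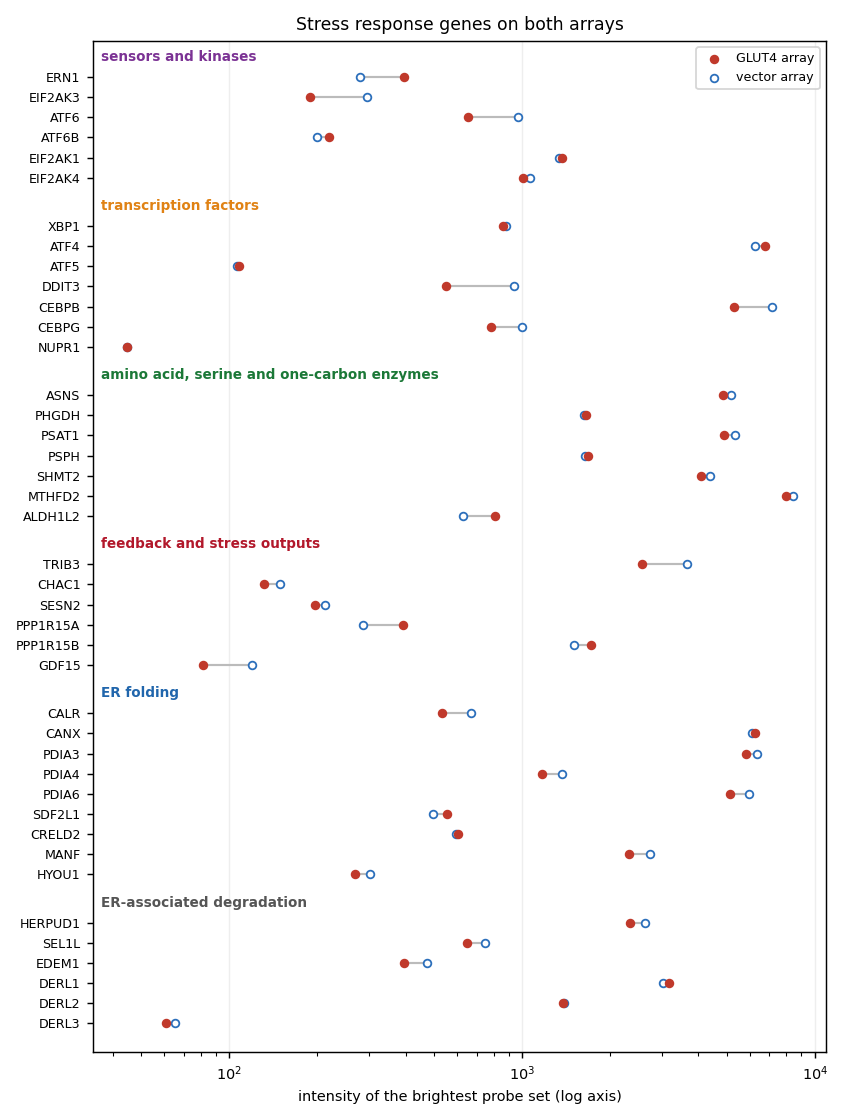
Intensity of the brightest probe set of each of the 41 measured genes (log axis), with filled red points for the GLUT4 array and open blue points for the vector array, grouped by arm. The widest gaps are those of DDIT3 (551 and 941) and EIF2AK3 (189 and 295), and most pairs nearly coincide.

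The arm of the sensors and kinases held the widest scatter between genes and between probe sets of the same gene. EIF2AK3 encodes PERK, the ER kinase that phosphorylates eIF2. It read 189 on the GLUT4 array and 295 on the vector array, 1.56-fold lower. Its other probe set was near background at 8.06 and 8.34. After 32 was added to all intensities as an offset the difference came to -0.56, within 1.5-fold, and averaging with the dim probe set gave -0.35.

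ATF6, the ER-anchored transcription factor that is cut free in the Golgi, read 653 with GLUT4 and 965 with the vector, 1.48-fold lower and just within the threshold. Its further probe sets read 225 and 317 (-0.50) and 336 and 337 (-0.01), and the dimmest differed by -0.36. So 3 of its 4 probe sets were lower by similar amounts and 1 read alike on both arrays. Its paralogue ATF6B had probe sets on both sides of 0, at 0.14, -0.17 and -0.39, the last being below the median signal.

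ERN1, which encodes the kinase and endoribonuclease IRE1, gave opposite readings. Its brightest probe set read 395 with GLUT4 and 279.8 with the vector (0.50), the next read 95.1 and 165 (-0.80, 1.74-fold lower), and the dimmest read 48.6 and 52.7 (-0.12). The span of 1.29 between its probe sets was the widest of the 29 members with several. Averaged over its probe sets the difference was -0.14, so no direction for ERN1 mRNA can be given from these arrays.

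The remaining eIF2 kinases differed little on their brightest probe sets. EIF2AK1, the haem-regulated kinase HRI, read 1367 with GLUT4 and 1338 with the vector. EIF2AK4, the kinase GCN2 that senses uncharged tRNA, read 1007 and 1067. A second probe set of EIF2AK4 read 222 and 146, 1.52-fold higher (0.60), which is past the threshold and opposite in sign to the brightest (-0.08). That value came within 1.5-fold after quantile normalization (0.58) and with the offset of 32 (0.51). EIF2AK2, the interferon-induced kinase PKR and not one of the listed members, read 816 and 769 (0.09), and its other probe sets had the opposite sign, at -0.17 and -0.20. The median of the 6 sensors and kinases was -0.03.

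Among the transcription factors, DDIT3 had the largest difference of all 41 members. DDIT3 encodes CHOP, a C/EBP-family factor that ATF4 and ATF6 induce and that promotes cell death under prolonged stress. Its single probe set read 551 on the GLUT4 array and 941 on the vector array, 1.71-fold lower. Of the 12939 genes above the median signal 121 had a lower difference and 12817 a higher one. DDIT3 was thus among the more lowered genes of the array but not the most lowered. Its difference stayed between -0.74 and -0.79 under the alternative scalings and with the offset.

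ATF6, described above, was lower on 3 of its 4 probe sets, while the other factors differed less. ATF4, the translationally controlled effector of the integrated stress response, read 6740.2 with GLUT4 and 6242 with the vector (0.11). XBP1, whose mRNA IRE1 splices, read 860.2 and 882 (-0.04), and whether its probe sets separate spliced from unspliced mRNA was not determined. ATF5, a related factor under the same translational control, had 4 probe sets between -0.05 and 0.29. NUPR1, a stress-induced nuclear protein, read 44.6 and 44.5, not far above the median signal.

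The C/EBP partners of ATF4 lay lower on their brightest probe sets. CEBPB read 5292 with GLUT4 and 7121 with the vector, 1.35-fold lower on its only probe set. CEBPG read 783 and 999 (-0.35) on one probe set and 737 and 594 (0.31) on the other. The CEBPG probe sets were of like intensity and opposite sign, so no direction is given for it. The median of the 7 transcription factors was -0.04, and -0.35 without x_at and s_at probe sets, which left out ATF5 and NUPR1.

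The window before the DDIT3 start is shown because DDIT3 had the largest difference and its promoter is known to hold an ER stress response element (ERSE). The ERSE is the motif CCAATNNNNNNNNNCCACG, whose CCAAT part binds NF-Y and whose CCACG part binds ATF6 or XBP1. In the 250 bases before one of its starts (GRCh38.p14, chr12:57520515-57520764, minus strand, RefSeq) no exact ERSE was found on either strand. A pair of overlapping matches with 1 of the 10 fixed bases changed was found, one as read (G19T) and one on the opposite strand (C15G), positions being counted from 1 at the first C of the motif on its own strand. Capitals mark the stretch that the matches cover together.
DDIT3: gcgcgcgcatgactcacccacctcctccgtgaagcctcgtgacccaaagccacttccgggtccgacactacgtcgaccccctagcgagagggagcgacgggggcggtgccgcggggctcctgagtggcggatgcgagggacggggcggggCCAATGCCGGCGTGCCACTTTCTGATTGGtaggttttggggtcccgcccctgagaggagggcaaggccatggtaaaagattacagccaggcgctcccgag
Windows of this length with an exact match or 1 changed base were found before 1.67% of 27305 genes and before 10 of the 34 listed genes in the promoter table. A match of letters is a description and not a binding site.

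The enzymes of amino acid, serine and one-carbon synthesis, classical ATF4 targets, were close to equal on both arrays. ASNS, which makes asparagine, read 4879 with GLUT4 and 5166 with the vector. Of the serine synthesis pathway, PHGDH, its first enzyme, read 1658 and 1633, PSAT1, its transaminase, read 4913 and 5339, and PSPH, the phosphatase of its last step, read 1674 and 1639.7. These differences, at -0.08, 0.02, -0.12 and 0.03, lay within 0.20, the SD of a single probe set. The mitochondrial folate enzymes SHMT2 (4084 and 4390.1) and MTHFD2 (7987 and 8424) were likewise within it, at -0.10 and -0.08.

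ALDH1L2, the mitochondrial 10-formyltetrahydrofolate dehydrogenase, stood apart in this arm. It read 809 with GLUT4 and 627 with the vector, 1.29-fold higher, and its further probe sets read 67.6 and 53.7 (0.33) and 52.3 and 36.9 (0.50). All 3 probe sets lay on the same side, none of them past 1.5-fold. A dimmer probe set of PSPH was 1.71-fold higher (91.7 and 53.6), but its probes can match other sequences by its x_at suffix, and the bright PSPH probe sets were at 0.03 and -0.14. With the offset of 32 it came to 0.53, within 1.5-fold. The median of the 7 enzymes was -0.08.

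The amino acid response acts through a shorter motif, the C/EBP-ATF response element (CARE), TGATGNAA, which ATF4 binds with a C/EBP partner. It was searched on both strands in the 250 bases before each start and was found before 5 of 34 members and before 3.89% of all genes. The stretches are shown because they hold these letters, which is not evidence of binding, with the motif in capitals and 12 bases on each side, read along the gene's strand (GRCh38.p14, RefSeq). They lie at chr7:97872457-97872488 (minus strand) for ASNS, chr19:33374059-33374090 (plus) for CEBPG, chr15:40953250-40953281 (plus) for CHAC1, chr16:56931954-56931985 (plus) for HERPUD1 and chr1:204412025-204412056 (minus) for PPP1R15B.
ASNS: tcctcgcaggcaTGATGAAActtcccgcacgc
CEBPG: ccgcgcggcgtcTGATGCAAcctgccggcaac
CHAC1: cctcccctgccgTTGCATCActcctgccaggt
HERPUD1: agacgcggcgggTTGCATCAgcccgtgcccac
PPP1R15B: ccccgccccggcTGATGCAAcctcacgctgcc
In CHAC1 and HERPUD1 the motif reads on the opposite strand. The 5 holders had differences between -0.35 and 0.19 with a median of -0.17. The other 28 measured members in the promoter table had a median of -0.12, and all 490 measured genes with the motif had a median of -0.04. Sequence outside the 250 bases was not searched, so the other members may hold the motif elsewhere.

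The feedback regulators and stress outputs held moderate differences in both directions. TRIB3, a pseudokinase that CHOP and ATF4 induce and that restrains ATF4, read 2562 with GLUT4 and 3661 with the vector on its brighter probe set, 1.43-fold lower. Its other probe set read 273 and 381, 1.39-fold lower. Both probe sets of TRIB3 were thus lower by nearly the same amount.

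PPP1R15A encodes GADD34, which brings a phosphatase to eIF2 and so ends the translational block. It read 394 with GLUT4 and 287 with the vector, 1.37-fold higher, and 321 and 234 on its other probe set, also 1.37-fold higher. PPP1R15A thus lay on the opposite side from DDIT3 and TRIB3, which the same pathway induces. Its constitutive relative PPP1R15B read 1718 and 1507 (0.19).

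GDF15, a secreted stress cytokine, read 81.4 with GLUT4 and 119.6 with the vector, 1.47-fold lower, on an x_at probe set. Its other probe sets lay below the median signal and differed by -0.18 and 0.05. CHAC1, a glutathione-degrading enzyme downstream of ATF4, read 131 and 149 (-0.18). SESN2, which restrains mTORC1 on leucine shortage, differed by -0.11 and -0.13 on its probe sets. The median of these 6 genes was -0.14, and none passed 1.5-fold.

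**Figure D2:**
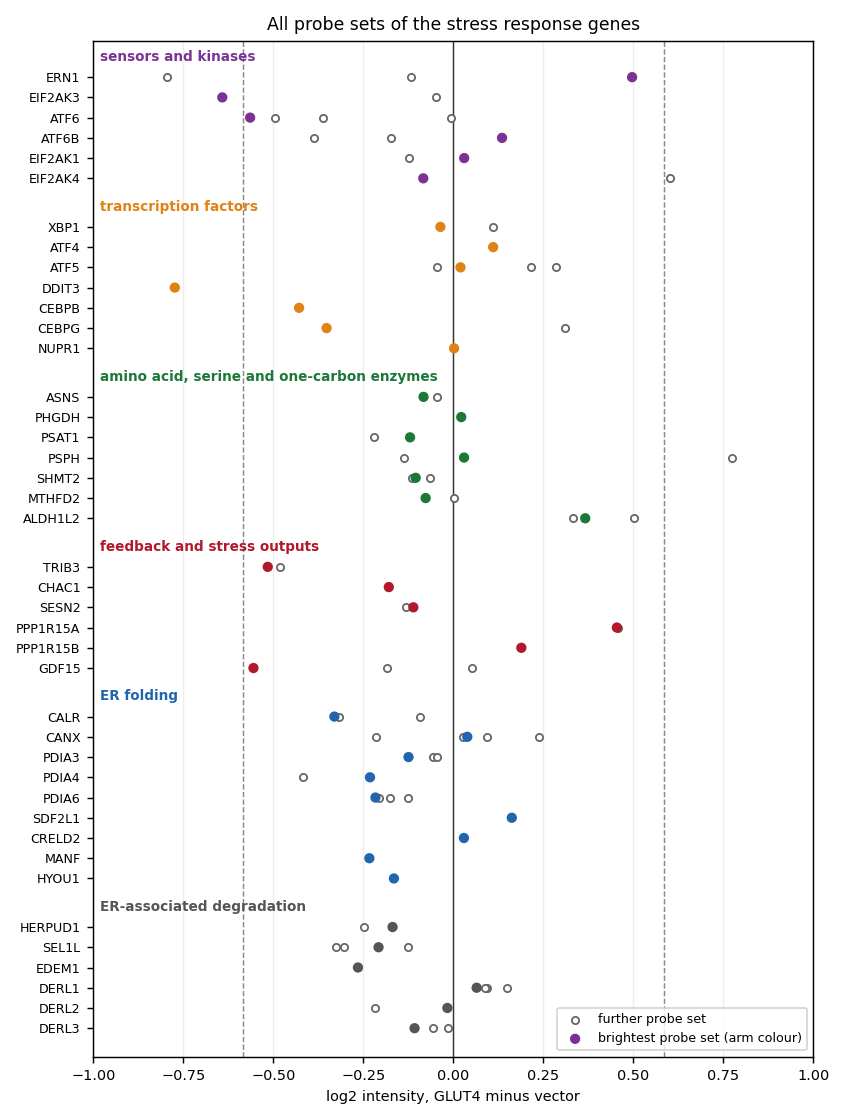
Log2 difference in intensity, GLUT4 minus vector (horizontal axis), for all 92 probe sets by gene and arm, with filled points for the brightest probe set, open points for the others and dashed lines at 1.5-fold. Past a dashed line lie DDIT3, EIF2AK3 and a further probe set of ERN1 on the lower side, and further probe sets of EIF2AK4 and PSPH on the higher side.

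Counted by probe set, 2 of 92 were more than 1.5-fold higher, against 2.04% of all probe sets, and 3 were more than 1.5-fold lower, against 1.22%. By probe set 60 lay below 0 and 32 above, that is 65.2% below 0, against 51.5% of the probe sets that name 1 gene. Of the 29 members with several probe sets, 15 had all of them below 0 and 3 had all of them above 0 (ALDH1L2, PPP1R15A and DERL1). The remaining 11 had them on both sides. The matching shares over all genes were not computed, so whether these counts are unusual for the array cannot be said. The SD of the difference between the brightest pair was 0.36 over these 29 genes, against 0.29 over all genes with a pair.

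The genes of ER folding lay slightly below 0, with a median of -0.16 over 9 genes and none past 1.5-fold. CALR, the soluble lectin chaperone, read 534 with GLUT4 and 672 with the vector, 1.26-fold lower, and 391 and 487 on its next probe set (-0.32), while the dimmest differed by -0.09. Its membrane-bound partner CANX read 6266 and 6099 (0.04). Without x_at and s_at probe sets, CALR stood at -0.09 and CANX at -0.22.

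The listed disulfide isomerases PDIA3, PDIA4 and PDIA6 lay below 0 on every probe set. The main isomerase P4HB, one of the further genes, lay slightly above 0 on its 3 probe sets, at 2691 with GLUT4 and 2566 with the vector on the brightest (0.07). PDIA6 was at -0.22, -0.21, -0.13 and -0.18 on its 4 probe sets, with 5146 with GLUT4 and 5977 with the vector on the brightest. PDIA4 read 1168 and 1372 (-0.23), and 439.9 and 587 on its other probe set (-0.42). PDIA3, which works with calnexin and calreticulin on glycoproteins, was at -0.12, -0.06 and -0.05. The sizes for PDIA3 and PDIA6 were near or under the SD of a single probe set of 0.20.

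MANF, a secreted ER stress protein, read 2323 with GLUT4 and 2731 with the vector (-0.23), and HYOU1, an ER exchange factor for BiP, read 269 and 302 (-0.16). SDF2L1, a chaperone cofactor, read 554 and 495 (0.16), and CRELD2, an ER-resident isomerase-like protein, read 606 and 593 (0.03). These are typical targets of ATF6 and XBP1, and they lay on both sides of 0.

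The ER stress elements of this group are shown because they are the sequence feature its genes share. The exact ERSE was found before 5 of 34 members and before 0.0916% of all genes. A second form, ERSE-II, has the letters ATTGG and CCACG with any 1 base between them. It was found before 3 members and 0.0659% of all genes. The XBP1 motif UPRE, TGACGTGG, was found before 1 member, HYOU1, where it overlaps an ERSE-II, and before 0.78% of all genes. Counting any of them, 6 of the 8 folding genes in the promoter table held one, as did XBP1 and HERPUD1 from the other arms. Capitals mark the motif, with 12 bases on each side along the gene's strand (GRCh38.p14, RefSeq). The ERSE stretches lie at chr19:12938372-12938414 (plus strand) for CALR, chr5:179698766-179698808 (plus) for CANX, chr22:49918542-49918584 (plus) for CRELD2, chr2:10812841-10812883 (minus) for PDIA6, chr22:28800591-28800633 (minus) for XBP1 and chr9:125241379-125241421 (minus) for HSPA5, the gene of the chaperone BiP. The ERSE-II stretches lie at chr16:56932013-56932047 (plus) for HERPUD1, chr11:119057368-119057402 (minus) for HYOU1, which held a further match at chr11:119057262-119057296 that is not printed, and chr22:21642102-21642136 (plus) for SDF2L1.
CALR: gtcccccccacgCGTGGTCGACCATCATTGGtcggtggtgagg
CANX: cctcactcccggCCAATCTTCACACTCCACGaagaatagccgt
CRELD2: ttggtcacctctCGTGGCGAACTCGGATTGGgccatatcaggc
PDIA6: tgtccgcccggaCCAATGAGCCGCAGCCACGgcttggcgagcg
XBP1: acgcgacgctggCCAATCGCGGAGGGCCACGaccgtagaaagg
HSPA5: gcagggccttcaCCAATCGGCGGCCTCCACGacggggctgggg
HERPUD1: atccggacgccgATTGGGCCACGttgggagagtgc
HYOU1: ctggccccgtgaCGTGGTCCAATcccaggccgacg
SDF2L1: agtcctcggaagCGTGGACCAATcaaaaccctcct
In CALR, CRELD2, HYOU1 and SDF2L1 the motif reads on the opposite strand. The 8 measured members with any of these motifs had differences between -0.33 and 0.16 and a median of -0.10, with 5 below 0 and 3 above. The other 25 measured members in the promoter table had a median of -0.12, close to that of the holders. All 184 measured genes of the array with such a motif had a median of -0.03. Here too only 250 bases were searched, and members without a match may hold one elsewhere.

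ER-associated degradation returns misfolded proteins to the cytosol for the proteasome. Its genes lay slightly below 0, with a median of -0.14 over 6 genes. None passed 0.32 in size on its brightest probe set. EDEM1, a mannosidase-like protein that marks glycoproteins for degradation, read 395 with GLUT4 and 474 with the vector (-0.26). SEL1L, the adaptor of the ligase that SYVN1 encodes, was at -0.21, -0.13, -0.33 and -0.30 on its 4 probe sets, the first at 647 and 747. All 4 SEL1L probe sets lay below 0.

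HERPUD1, a stress-induced scaffold of the same ligase, read 2336 with GLUT4 and 2625 with the vector (-0.17), and 44.1 and 52.4 on its other probe set (-0.25). The derlins, membrane proteins of the export channel, differed from each other. DERL1 was between 0.07 and 0.15 on its 4 probe sets, with 3184 and 3044 on the brightest. DERL2 read 1378 and 1393 (-0.02), and 196 and 228 on its other probe set (-0.22). DERL3 was between -0.11 and -0.01 at intensities of 65.4 or less.

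**Figure D3:**
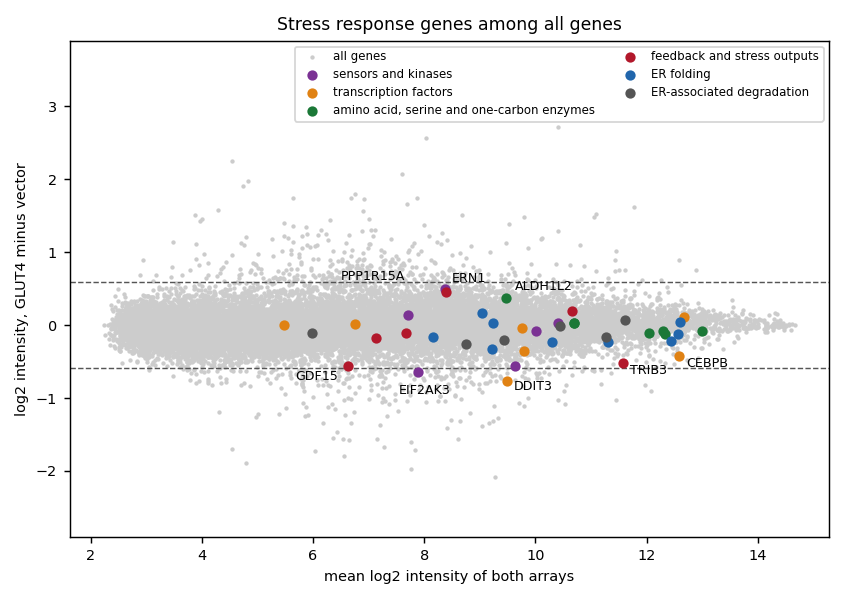
Log2 difference, GLUT4 minus vector (vertical axis), plotted over the average of its log2 intensities on the arrays (horizontal axis) for all 19775 genes in grey and the 41 measured members in the colours of their arms, with dashed lines at 1.5-fold. Past the lower line lie DDIT3 and EIF2AK3, 2 of 41, and past the upper line no member.

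Further genes of the pathway, in 8 lists drawn up with earlier results of these data known, were also mostly within 1.5-fold. On their brightest probe sets none of the 93 measured was more than 1.5-fold higher, against 1.84% of all genes. Of these 93, 1 was more than 1.5-fold lower, against 1.54% of all genes. That gene was STC2, a secreted glycoprotein that ATF4 and hypoxia induce, at 298 with GLUT4 and 687 with the vector (-1.21), while its other probe set read 339 and 419 (-0.30).

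The central ER chaperone gene HSPA5 read 7255 with GLUT4 and 9006 with the vector, 1.24-fold lower, and 371 and 527 on its other probe set, 1.42-fold lower. DNAJB9, a BiP cochaperone and target of XBP1, read 685 and 931 (-0.44), and its further probe sets were at -0.34 and -0.24. HSP90B1, the ER form of HSP90, read 2203 and 2531 (-0.20). All probe sets of these 3 genes lay below 0 and none passed 1.5-fold. Of the 16 further ER chaperones and folding enzymes measured, 12 lay below 0, against 52.2% of all genes, with a median of -0.11.

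ATF3, a stress factor downstream of ATF4, read 5116 with GLUT4 and 6362 with the vector (-0.31), with its further probe sets at -0.27 and -0.25. Of the 15 further ATF4-responsive genes 10 lay below 0, with a median of -0.15. The 11 aminoacyl-tRNA synthetases, another group that ATF4 induces, had a median of -0.03 and none past 0.32 in size on its brightest probe set. Dim probe sets of TARS1 (27.7 with GLUT4 and 43.0 with the vector, -0.64) and CARS1 (42.5 and 32.3, 0.40) were past it. The list of 10 genes with the subunits of eIF2 and of its exchange factor, PKR and EIF2A had a median of 0.00, the 16 further genes of ER-associated degradation -0.05, the 9 further serine, glycine and one-carbon genes 0.02, the 9 further stress transducers and proteases -0.02, and the 7 mitochondrial proteostasis genes 0.00. Over all 93 the median was -0.03, against -0.02 over all genes.

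**Figure D4:**
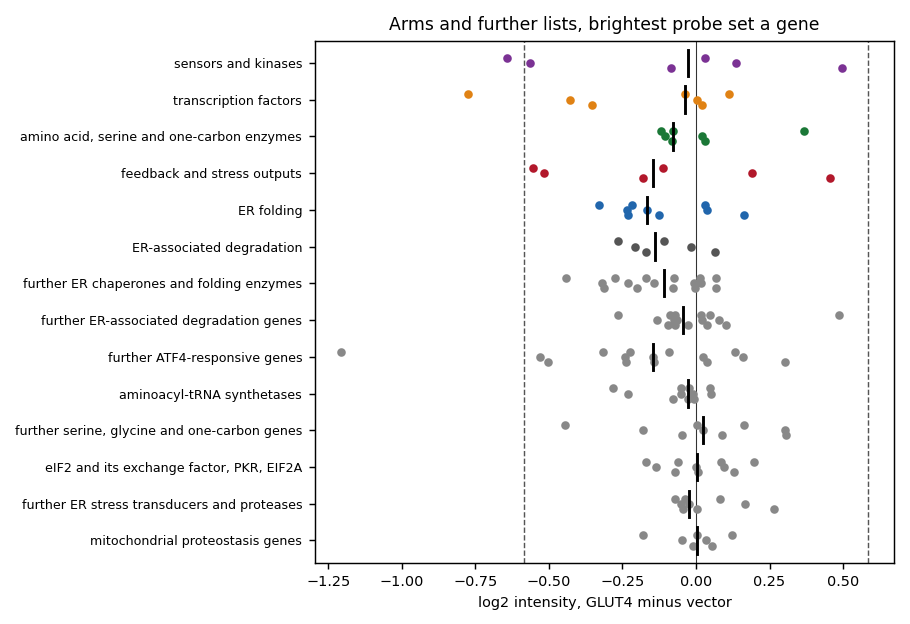
Log2 difference, GLUT4 minus vector (horizontal axis), of the brightest probe set of each gene in the 6 arms (coloured) and the 8 further lists (grey), with black bars at the medians and dashed lines at 1.5-fold. The medians run from -0.16 for ER folding to 0.02 for the further serine, glycine and one-carbon genes, and the lowest point is STC2 at -1.21.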

How the data were processed

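Total RNA of both FaDu populations was labelled with a kit that primes from the transcript's end and hybridized to Affymetrix Human Genome U133 Plus 2.0 arrays. The deposited values are intensities on a linear scale, which the authors normalized in GeneSpring. MAS5 also appears, with no version, in the submitters' processing notes, and the order of these steps was not stated in the sources used here. Both columns have the same maximum, and the lowest value over both together is 4.15. The number of arrays limits the precision, and no detection calls were used.

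The platform annotation of GEO gave 1 gene for 41097 of 54675 probe sets, several for 1801 and none for 11777. Intensities were set to at least 1 (no value was lower) and turned to log2. All listed genes are named, those with a probe set past 1.5-fold with all of their probe sets, and up to 4 genes past 1.5-fold of each further list. The members and lists were chosen with earlier results of these data known. In place of a differential test, counts and medians stand beside those of all genes. Procedures were tested on simulated data.

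Promoter sequences are those of RefSeq on GRCh38.p14 (34 of 42 genes matched by symbol), searched for each motif on both strands over 250 bases before 35116 starts. Alternatives were scaling to equal medians, loess (fraction 0.3) or quantile normalization between the arrays, adding 32 to all intensities, keeping probe sets above the median signal, dropping x_at and s_at probe sets, and averaging the probe sets of a gene. Scripts ran in Python 3.11.15 with numpy 2.4.6, pandas 2.3.3, statsmodels 0.14.6 and matplotlib 3.10.9.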

Additional observations from a re-analysis of the deposited data

How the results depend on the processing

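The counts past 1.5-fold among the members are small, so a single probe set moves them. The count of genes lower, 2 in the analysis as reported, was 1 with the offset of 32 and 1 with averaged probe sets, DDIT3 in both, because EIF2AK3 came within 1.5-fold. Without x_at and s_at probe sets the count of genes higher was 1 in place of 0, EIF2AK4 on its other probe set, 8 members could not be measured, and the median of the transcription factors was -0.35 in place of -0.04. The count of probe sets higher, 2 as reported, was 1 after quantile normalization, 0 with the offset and 1 without x_at and s_at probe sets. With the threshold of 0.32 on the log2 scale, chosen after the data were seen, 8 genes were lower and 3 higher. All other counts and medians stayed within 1.5 times or 0.20 of those reported. That margin of 0.20 exceeds the size of every arm median, so a median could change sign within it. Without x_at and s_at probe sets the sensors and kinases went from -0.03 to 0.14, and ER-associated degradation from -0.14 to -0.02. With averaged probe sets the sensors and kinases stood at -0.14. Of the single gene values under the alternatives, 268 moved by less than 0.20 and 11 by more. The scalings, the offset and the median signal filter moved none of the 41 by more. The filter could move none, because all 41 lie above the median signal. Dropping x_at and s_at probe sets moved 4 of the 33 members left, and averaging moved 7 of 41. Neither DDIT3 nor EIF2AK3 changed sign, but DDIT3 has a single probe set, so no alternative could draw on another. ERN1 lay at -0.14 with averaged probe sets. No paired analysis was possible because each group had 1 array, and for the same reason no array could be left out.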
